A study of Mus musculus with 6 samples.

Results

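Hmox1 encodes the inducible heme oxygenase, and it is 1 of 680 mouse genes analysed here in MC3T3 cells, a pre-osteoblast line from mouse calvaria. Its row was found by the Ensembl identifier ENSMUSG00000005413, which GENCODE M21 pairs with Hmox1. Hmox1 was chosen by its measured level, its rank by level and its difference between the groups in these same libraries, so those values are given as a description with no test. Of the 6 RNA sequencing libraries, 3 came from cells given exosomes of HUVEC (human umbilical vein endothelial cells) for 48 hours and 3 from an untreated control group. No group given a vehicle or exosomes of another cell is labelled among the samples used here. By their titles the libraries are biological repeats, and separate cultures are not named, so spreads and p-values refer to these libraries. The labels call the cells stem cells of bone. Of 20 osteoblast and osteocyte marker genes, 2 are among the 680 genes, Dmp1 and Fam20c, so the line's identity could be checked on these alone.

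Heme oxygenase sits on the membrane of the endoplasmic reticulum (ER) and opens the heme ring, giving biliverdin, carbon monoxide and ferrous iron. Hmox1 is the inducible form, held down by the heme-sensing repressor BACH1 and switched on by NRF2, which binds antioxidant response elements with small MAF partners. Hmox2 is the constitutive form. RefSeq lists HO-1 and Hsp32 among the older names of Hmox1, and Hsp32 refers to its induction by heat in the rat. In bone, heme oxygenase is studied as a stress gene of osteoblasts and osteoclast precursors.

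Hmox1 lies on the plus strand of chromosome 8, from 75093621 to 75100589 in GRCm38, and GENCODE places no other gene over it. Its protein-coding transcript has 5 exons and 1569 bases, of which 867 are coding. A second transcript of 774 bases is annotated as a retained intron, and both together cover 1751 exonic bases. No stretch of 31 or more bases of the coding transcript occurs on either strand in the 141765 annotated mouse transcripts of other genes. The retained-intron transcript was not searched, and neither were human transcripts, although the exosomes came from human cells. Whether human RNA added to the reads was not tested. The longest run shared with any other gene has 24 bases, and the longest shared with Hmox2 has 17. The stretch around that last run is shown because it is where reads of the 2 heme oxygenase genes look most alike by this measure. Both lines give 90 coding bases on the plus strand, 5′ to 3′, with the shared run in capitals.
Hmox1 (chr8:75097048-75097137, coding bases 343 to 432): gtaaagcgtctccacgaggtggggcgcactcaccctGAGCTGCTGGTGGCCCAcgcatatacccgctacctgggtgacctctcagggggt
Hmox2 (chr16:4764804-4764893, coding bases 400 to 489): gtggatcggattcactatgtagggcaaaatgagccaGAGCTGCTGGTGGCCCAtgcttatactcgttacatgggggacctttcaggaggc
The 2 stretches match at 66 of 90 positions. Hmox2 is not among the 680 genes analysed here.

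Hmox1 had 717, 794 and 898 FPKM (fragments scaled to exon length and to library size) in exosome libraries 1, 2 and 3, against 329, 286 and 409 FPKM in control libraries 1, 2 and 3. All exosome libraries lay above all control libraries, with 308 FPKM between the lowest exosome library and the highest control library. Of the 680 genes, 86.9% had groups that did not overlap, 22.8% with the exosome libraries higher, and the authors had listed all of these genes as changed. The mean was 803 ± 90.8 FPKM in exosome libraries and 341 ± 62.1 FPKM in control libraries (SD, n = 3 each). The ratio of these means was 2.35, and the difference was 1.24 on the log2(FPKM + 1) scale. Taken pair by pair, an exosome library had between 1.75 and 3.14 times the FPKM of a control library. Within a group the highest library had 1.25 times the lowest among exosome libraries and 1.43 times the lowest among control libraries. In RNA from a whole culture, more cells that express a gene and more RNA of it per cell cannot be told apart.

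**Figure D1:**
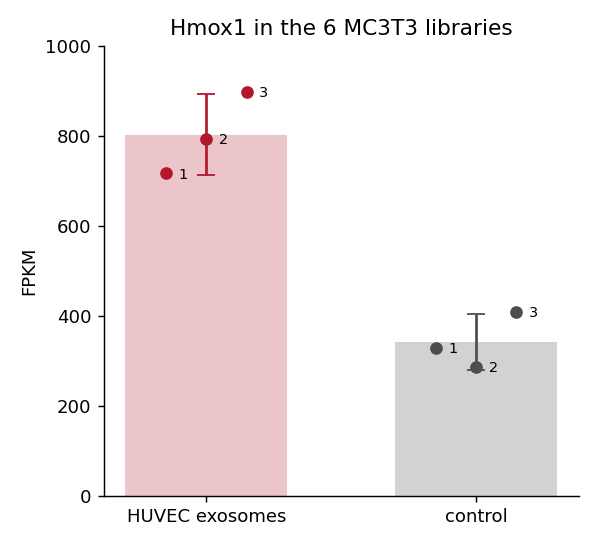
FPKM of Hmox1 in the 3 libraries of cells given HUVEC exosomes (left) and the 3 control libraries (right). Points are libraries with their replicate number, bars the group mean and whiskers the SD. The exosome libraries lie between 717 and 898 FPKM, all above the control libraries, which lie between 286 and 409.

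The depth inferred behind these values is large. Library depth was taken as the smallest number tried that made FPKM times exon length whole for nearly all genes. Whole reads are therefore a condition of that depth, and a multiple of it would serve as well. Hmox1 then had 65445, 75683 and 80693 reads in the exosome libraries and 22838, 21848 and 34620 reads in the control libraries. On this scale the libraries held 51315986 to 54429032 reads in the exosome group and 39630444 to 48369052 reads in the control group. Hmox1 took 0.126% (Wilson 95% interval 0.125 to 0.127), 0.139% (0.138 to 0.140) and 0.157% (0.156 to 0.158) of the reads of exosome libraries 1, 2 and 3. In control libraries 1, 2 and 3 its share was 0.0576% (0.0569 to 0.0584), 0.0501% (0.0495 to 0.0508) and 0.0716% (0.0708 to 0.0723). These intervals cover counting error only, at the inferred depth. They are too narrow where both mates of a pair were counted, as low values in the table show (74.7% of values from 2 to 21 reads were even). At that depth, counting alone would give a coefficient of variation of 0.352% to 0.391% in exosome libraries and 0.537% to 0.677% in control libraries. The spread between libraries was 11.3% in the exosome group and 18.2% in the control group. Among the 25 genes that averaged 10 FPKM or more, the median spread was 13.2% in the exosome group and 23.8% in the control group, and 8 genes varied less than Hmox1 in each group.

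By level, which FPKM compares between genes per length of exon, Hmox1 had a mean of 572 FPKM over all 6 libraries, and the median gene of the table had 0.187 FPKM. It was first by mean level over all libraries and over the exosome libraries, and second over the control libraries. Library by library it ranked 2, 1 and 1 in the exosome group and 2 in each control library. The gene above it was mt-Atp8 in exosome library 1 and Dmp1 in each control library. Hmox1 made up 17.6%, 23.9% and 24.3% of the FPKM summed over the table in exosome libraries 1, 2 and 3, and 12.7%, 10.9% and 14.5% in control libraries 1, 2 and 3. These shares refer to genes chosen as changed, not to all RNA of the cells.

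The next 5 genes by mean level were Dmp1, Creld2, Manf, mt-Atp8 and Mir5125. Mir5125, a microRNA locus, had 79.2, 60.9 and 133 FPKM in exosome libraries and 165, 256 and 204 FPKM in control libraries. It has 79 exonic bases and mt-Atp8 has 204. FPKM divides by these short lengths, and how far that set their ranks was not tested. Which transcripts the reads at these short loci came from was not tested either. Dmp1, an acidic phosphoprotein of bone matrix, had 258, 211 and 204 FPKM in exosome libraries, against 563, 525 and 454 FPKM in control libraries. Hmox1 stood at 2.78, 3.76 and 4.41 times the FPKM of Dmp1 in exosome libraries and at 0.585, 0.545 and 0.900 times in control libraries, so the order of these 2 genes was opposite in the 2 groups in every library. Dmp1 was lower with exosomes by 1.19 on the log2(FPKM + 1) scale (SE 0.12, limma adjusted p = 0.00512). Creld2, an ER protein with disulfide isomerase activity, had 443, 441 and 423 FPKM in exosome libraries, against 155, 114 and 254 FPKM in control libraries. Hmox1 had 1.62 to 2.12 times the FPKM of Creld2 in exosome libraries and 1.61 to 2.51 times in control libraries, and these ranges overlap. The mitochondrially encoded mt-Atp8, a subunit of ATP synthase, had 842, 116 and 60.3 FPKM in exosome libraries and 37.2, 13.3 and 112 FPKM in control libraries, with groups that overlap. Its single high library is the only place where a gene other than Dmp1 stood above Hmox1.

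**Figure D2:**
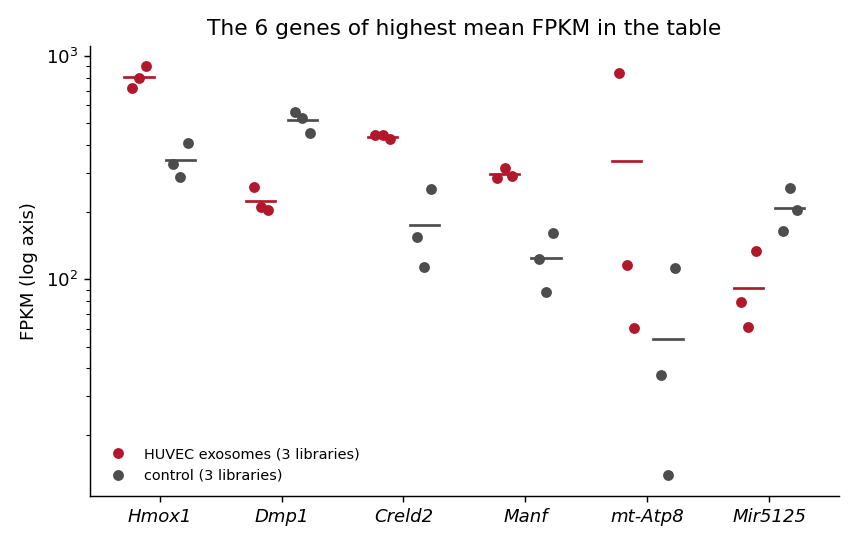
FPKM on a log axis of the 6 genes with the highest mean FPKM among the 680, with exosome libraries to the left of control libraries for each gene. Points are libraries and short lines group means. Hmox1 lies above Dmp1 in the 3 exosome libraries and below it in the 3 control libraries.

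Read as an amount of FPKM, the difference between the group means of Hmox1 was 462 FPKM, the highest of the 177 genes with the higher mean in exosome libraries. The gains of those 177 genes summed to 1891 FPKM, and Hmox1 made up 24.4% of that sum. The next by this measure were mt-Atp8 at 285 FPKM, which rests on 1 library, and Creld2 at 262 FPKM. Read as a ratio, Hmox1 was not extreme. Of those 25 genes averaging 10 FPKM or more, 18 had the higher mean in exosome libraries, with a median ratio of 2.43, and Hmox1 was number 11 among these 18. The 5 with the largest ratios were Bc1 (8.33), mt-Atp8 (6.25), mt-Nd4l (3.71), Sumo2 (3.48) and Rps27 (3.11). Each of these 5 varied more between exosome libraries than Hmox1 did. Sumo2, a ubiquitin-like modifier, had 7.60, 5.95 and 46.0 FPKM in exosome libraries and 5.16, 6.52 and 5.44 FPKM in control libraries, so its ratio rests on exosome library 3. Bc1 and Rps27 are known for many genomic copies, and how far their reads were shared with such copies was not tested.

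The genes most like Hmox1 in profile were found among the 138 genes that averaged 1 FPKM or more, by the root mean square distance between log2(FPKM + 1) profiles over the 6 libraries after each gene was centred on its own mean. The nearest 5 were Manf (0.151), Sdf2l1 (0.154), Cdk2ap2 (0.157), Gm30970 (0.163) and Selenok (0.196), all in log2 units. The 60 genes other than Hmox1 in this range with the higher mean in exosome libraries had a median distance of 0.381. All 680 genes were chosen as changed, so which genes lie near depends on the size and sign of the group difference. Deviations from the group means alone gave distances of 0.149 for Manf, 0.142 for Sdf2l1, 0.0777 for Cdk2ap2, 0.103 for Gm30970 and 0.162 for Selenok. The distances of Manf, Sdf2l1 and Selenok thus came mostly from differences within groups. Correlation over the 6 libraries gave Manf, Sdf2l1 and Cdk2ap2 again, with the cytochrome P450 gene Cyp2c23 and the ubiquitin ligase gene Rnf183 in place of Gm30970 and Selenok. With deviations from the group means only, Cdk2ap2 and Gm30970 remained among the nearest 5, and Gm9385, Gm16574 and Gm49125 replaced Manf, Sdf2l1 and Selenok. Gm9385 had the higher mean in exosome libraries (2.59 against 1.27 FPKM in control libraries). Gm16574 (2.48 against 5.56 FPKM) and Gm49125 (0.696 against 2.32 FPKM) had the lower mean there.

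Manf, whose protein is secreted and rises under ER stress, had 285, 314 and 291 FPKM in exosome libraries, against 124, 87.4 and 162 FPKM in control libraries. Sdf2l1, a component of ER chaperone complexes, had 145, 161 and 180 FPKM in exosome libraries and 56.8, 46.2 and 91.9 FPKM in control libraries. The ratio of Hmox1 to Sdf2l1 in FPKM was 4.95, 4.94 and 4.98 in the exosome libraries and 5.80, 6.20 and 4.45 in the control libraries. These 2 genes thus kept a nearly constant ratio in the exosome group and varied more against each other in the control group. Cdk2ap2, which codes for a protein named for its association with the cell cycle kinase CDK2, had 95.5, 117 and 117 FPKM in exosome libraries and 54.0, 50.1 and 63.1 FPKM in control libraries. Gm30970 is annotated as a processed pseudogene and had 2.75, 3.54 and 4.29 FPKM in exosome libraries and 1.32, 0.695 and 1.94 FPKM in control libraries. Its reads may come from related genes. Hmox1 and each of the 5 genes nearest to it had the lowest control value in library 2 and the highest in library 3. These 5 genes were picked for likeness to Hmox1 over these same libraries. Their shared order and the steady ratio to Sdf2l1 follow in part from that choice. In the exosome group Hmox1, Sdf2l1 and Gm30970 were lowest in library 1 and highest in library 3, whereas Selenok, an ER membrane selenoprotein, had 46.6, 43.5 and 41.0 FPKM there, the opposite order.

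**Figure D3:**
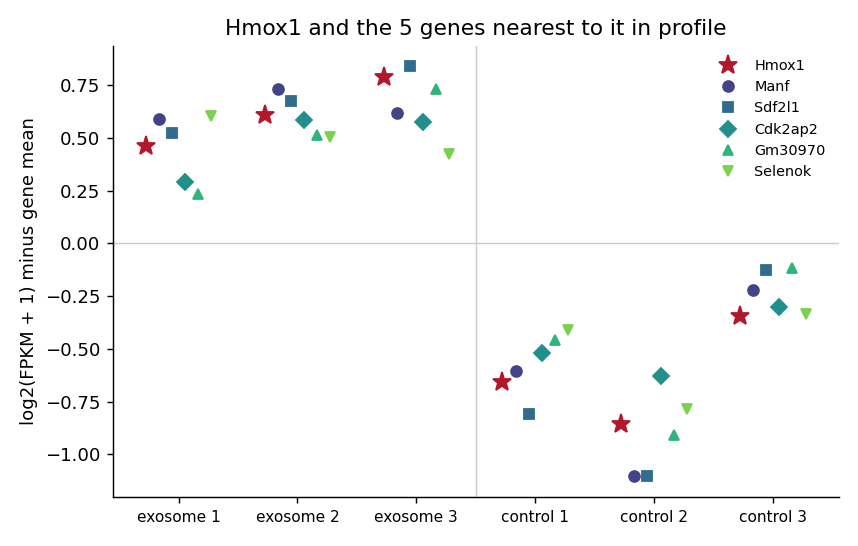
Log2(FPKM + 1) minus the gene's own mean over 6 libraries, for Hmox1 (stars) and the 5 genes nearest to it in profile, with the 3 exosome libraries left of the 3 control libraries. All 6 genes lie above 0 in the exosome libraries and below 0 in the control libraries, and Hmox1 and the other genes lie lowest in control library 2.

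Hmox1 was the only member of its own pathways among the 680 genes. Of 30 genes of heme and iron handling, which include the second heme oxygenase, the biliverdin reductases, the enzymes of heme synthesis, the ferritins and the iron exporter Slc40a1, 1 was analysed, Hmox1 itself. Of 38 NRF2 target antioxidant genes, among them Nqo1, Gclm, Srxn1, Txnrd1 and Slc7a11, 1 was again analysed, Hmox1. The other members are not analysed here, and whether they changed by less than the authors' threshold was not tested. Of 29 genes for factors that act on Hmox1 transcription, including Nfe2l2, Keap1, Bach1, the small MAF genes, Hsf1 and Atf4, 1 was analysed. That gene, Jund, encodes a subunit of the AP-1 transcription factor and had 3.89, 5.32 and 6.67 FPKM in exosome libraries and 2.45, 3.29 and 2.20 FPKM in control libraries. Jund rose by 0.78 on the log2(FPKM + 1) scale (SE 0.20, limma adjusted p = 0.0278), but its limma adjusted p was 0.0658 to 0.0802 when either exosome library 2 or 3 or control library 1 or 3 was left out. Jund was lowest in exosome library 1 and highest in exosome library 3, as Hmox1 was, while its highest control library was library 2, where Hmox1 was lowest.

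Markers of other kinds of cell were also looked for. Among the 672 genes with a GENCODE symbol, none of 18 macrophage and leukocyte markers, 16 endothelial markers and 14 annotated erythroid markers was found. Their levels were therefore not analysed here, and their part in the Hmox1 values was not tested.

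Genes from 2 lists of stress genes rose as Hmox1 did. The lists were chosen with earlier results of these data known, so the counts from them are description only. Across the table, limma called 403 genes (59.3%), 105 of them higher with exosomes (15.4%), after the authors had already chosen all 680 as changed, so the adjusted p-values are too small as measures of significance. Leaving out exosome library 1, 2 or 3 brought the count to 237, 164 and 184 genes. Of 24 cytosolic heat shock chaperones, 3 were analysed and 3 rose, with a median log2 difference of 1.01 against -0.13 over all 680 genes. Most of the 680 genes are weak, and for weak genes this difference is near 0 by construction. Of the 25 genes averaging 10 FPKM or more, 18 had the higher mean in exosome libraries, these 3 among them. Hspa1b, an inducible chaperone of the HSP70 family whose reads are uncertain because its neighbour Hspa1a is nearly identical, had 99.2, 82.6 and 117 FPKM in exosome libraries and 29.2, 37.2 and 53.9 FPKM in control libraries (limma adjusted p = 0.0160). Hsph1, a nucleotide exchange factor of that family, had 51.1, 36.7 and 45.0 FPKM in exosome libraries and 20.1, 19.2 and 25.6 FPKM in control libraries (limma adjusted p = 0.0104). Dnajb1, a co-chaperone, had 35.3, 32.0 and 41.4 FPKM in exosome libraries and 15.0, 19.5 and 18.2 FPKM in control libraries (limma adjusted p = 0.00653). The 3 chaperones were each lowest in exosome library 2, whereas Hmox1 was lowest in exosome library 1. All 3 calls held with each library left out in turn.

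Of 32 genes of ER folding and ER stress, 5 were analysed and 5 rose, with a median log2 difference of 1.29. All 5 averaged more than 10 FPKM, where 18 of 25 genes had the higher mean in exosome libraries. The 5 genes were Creld2, Manf, Sdf2l1, Selenok and Dnajc3, the last an ER co-chaperone that inhibits the stress kinase PERK. Manf and Selenok kept their calls with each library left out in turn. Creld2 (limma adjusted p = 0.0178), Sdf2l1 (limma adjusted p = 0.0161) and Dnajc3 (limma adjusted p = 0.0321) did not, and 2 of the 5 genes were called without exosome library 2 or 3, 3 without exosome library 1 and 4 without control library 1. Hmox1 stood at 2.52 to 3.09 times the FPKM of Manf in exosome libraries and at 2.52 to 3.28 times in control libraries, so this ratio did not separate the groups. Manf is the gene nearest to Hmox1 in profile, and a like ratio in both groups follows largely from that nearness. Atf4 and Eif2ak3, the gene for PERK, which the series title names, are not among the 680 genes analysed here.

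The 2 bone markers analysed went the other way. Dmp1 and Fam20c both fell, where limma called 43.8% of the 680 genes lower and 503 of them had the lower mean in exosome libraries. Both averaged more than 10 FPKM, where 18 of 25 genes had the higher mean in exosome libraries. Fam20c, the Golgi kinase of secreted phosphoproteins such as Dmp1, had 6.70, 8.08 and 7.84 FPKM in exosome libraries and 17.2, 21.5 and 11.7 FPKM in control libraries (limma adjusted p = 0.0183). Its limma adjusted p was 0.0526 to 0.0556 with any 1 of the exosome libraries left out. Both genes had their lowest control value in library 3, where Hmox1 had its highest.

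**Figure D4:**
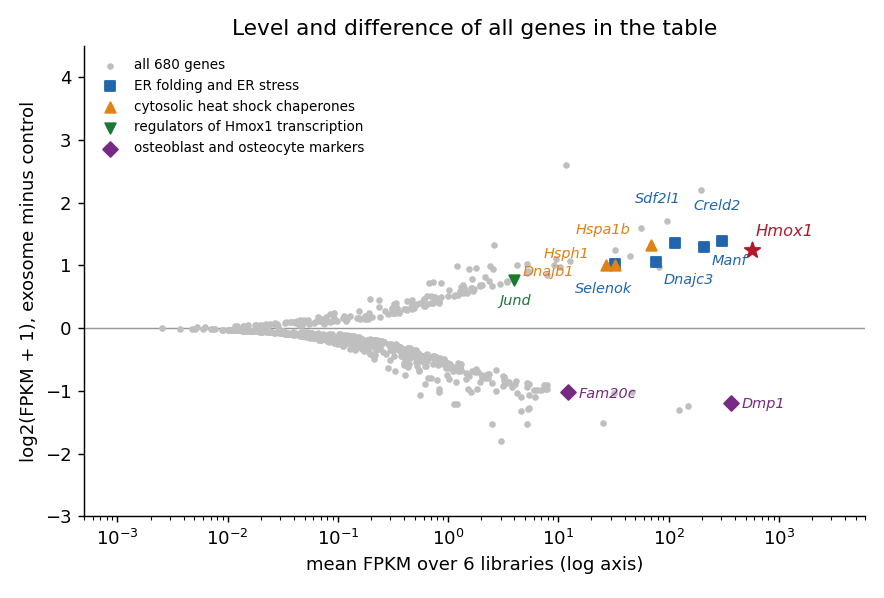
Each point is 1 of the 680 genes, with its mean FPKM over 6 libraries on a log axis and its log2(FPKM + 1) difference, exosome minus control, which is near 0 for weak genes by construction. Hmox1 is the star at the far right, at 572 FPKM and 1.24, close in height to the coloured ER and cytosolic chaperone genes, while Dmp1 and Fam20c lie at -1.19 and -1.02.

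The genes around Hmox1 on chromosome 8 are mostly outside the 680. Tom1, 23499 bases upstream, which codes for an endosomal sorting protein, and Mcm5, 8979 bases downstream, which codes for a subunit of the replicative helicase, are the nearest protein-coding genes and are not analysed here. Within 1 Mb, GENCODE lists 25 other genes, and 1 of them is in the table, the processed pseudogene Gm7901 at a distance of 611010 bases. Gm7901 had 1.79, 6.27 and 3.18 FPKM in exosome libraries and 2.21, 0.819 and 1.04 FPKM in control libraries, with groups that overlap (limma adjusted p = 0.0926).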

How the data were processed

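Per the labels' protocols, Trizol RNA went into SMARTer mRNA libraries. The deposited values were FPKM made by the authors for 680 genes they had called changed, per the name of the deposited table. Aligner, counter, build and caller are not given in the sources used here. Symbols, exon lengths and positions came from GENCODE M21 (GRCm38), matched by identifier for 672 of 680 genes. Reads were recovered as FPKM times exon length and library depth. The depth was inferred as the smallest tried that made reads whole, which they were within 0.02 in all libraries for 661 genes. All 680 genes, Hmox1 among them, were tested, two-sided, on log2(FPKM + 1) with limma 3.58.1 in R 4.3.3. Group was the only term, with Benjamini-Hochberg adjustment over 680 genes (threshold 0.05). The fit of Hmox1 is part of that adjustment, but its p-value is not given because the gene was chosen by its difference. The script was tested on simulated data. Wilson intervals used scipy 1.17.1. Shared runs were exact matches in GENCODE transcripts.

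Hmox1 and the gene lists were chosen with earlier results of these data known. Genes were named by rule: the 5 next by level, the 5 nearest in profile, the 5 largest ratios above 10 FPKM, list members, and table genes within 1 Mb. Alternatives were other pseudocounts, an FPKM limit, median centring, a replicate block, another prior, limma-voom on recovered reads, and leaving out each library. The promoter of Hmox1 is not shown here.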

Additional observations from a re-analysis of the deposited data

How the results depend on the processing

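The Hmox1 difference of 1.24 (log2) was 1.24 with pseudocounts of 0.1 and 0.01, the replicate block and limma-voom on recovered reads, 1.39 after median centring, which adds 0.15 to every gene, and 1.12 to 1.38 with each library left out. The pseudocounts and the block could hardly move a gene of this level in a balanced design. Hmox1 stayed first by mean level in every leave-one-out set and by the median over 6 libraries, and was at rank 2 over the control libraries alone. The count of 403 genes called by limma was 611 with a pseudocount of 0.01, 624 with limma-voom, 131 when only the 138 genes averaging 1 FPKM or more were tested, and 164 to 356 with each library left out, with fewer samples. Median centring gave 324 genes and moved the split to 212 higher and 112 lower, against 105 and 298. With the replicate block 201 genes were called, 197 of them shared. Jund, Bc1 and Mir5125 lost their calls (limma adjusted p = 0.0639, 0.0660 and 0.0687) while mt-Nd4l gained one (0.0452). That gain was not particular to the block. At a limma adjusted p of 0.0555 in the main fit, mt-Nd4l was called in 8 of 13 alternatives. Deviations from the group means correlated between libraries of the same number at -0.135, 0.0767 and -0.222, and not every library correlated best with its own number, so the numbers were not taken as pairs. The cause of the other shifts was not tested. With 3 libraries a group, all limited to genes the authors listed, the spread of Hmox1 is known only roughly.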
